A study of Homo sapiens with 18 samples.

Results

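The comparison described here is that of 48 hours of tamoxifen with ethanol vehicle in RWPE1 cells carrying the repressive MACC construct, in 3 libraries per treatment. These 6 of the study's 18 RNA-seq libraries were chosen by their labels, and genes were taken from the deposited table by count alone, with at least 10 counts in at least 3 of the 18 libraries. Of 57773 genes in the table, 5816 met this rule. RWPE1 is an immortalised, non-tumorigenic line from the human prostate epithelium. The MACC constructs (Modifiers of ARE Containing Chromatin) join a domain targeting androgen response elements (AREs) in DNA to ERT2, a tamoxifen-responsive hormone-binding domain, and a FLAG epitope tag. The repressive construct adds a KRAB domain, the activating construct of a second line adds VP64, and the neutral construct of another line adds no effector. All were delivered by lentivirus into RWPE1 and kept as stable, antibiotic-selected populations, so both treatments compared here carried the KRAB construct. The dose of tamoxifen is labelled 1.5 uM in the treatment field and 1.25 uM in the protocol field, which could not be resolved. The labels call the libraries of a group biological replicates and do not say how the cultures were separated, so the tests below measure the spread between these libraries.

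AREs are inverted repeats of a short hexamer that steroid hormone receptors bind as dimers. Glucocorticoid and progesterone receptors read nearly the same letters, and genes such as FKBP5, TSC22D3 and ZBTB16 respond to several of these hormones. A KRAB domain recruits the corepressor TRIM28 and, through it, enzymes that lay down repressive histone H3 lysine 9 methylation, so a KRAB fusion is commonly used to silence nearby elements. The question of the comparison is which transcripts change in benign prostate epithelial cells when the KRAB fusion is activated.

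The 6 libraries held 675609 to 792282 counts each. With a floor of 3 counts, a gene at 0 in a library could have a level of up to 3.79 to 4.44 CPM (counts scaled by the library total), and such floors cover counting error alone. ZNF10, the human gene from which the KRAB domain of such constructs is taken, had 16 counts over the vehicle and 24 over the tamoxifen libraries, and 0 in the other 12. ESR1, the source of ERT2, had 178 and 172. The basal keratin KRT5 had 680 to 1118 counts and the simple-epithelial keratin KRT8 had 751 to 1011 in every library. KLK3 (the luminal secretory product PSA) had 0 in all 6. The markers COL3A1, DES, CHGA, PTPRC, CD3E, CD14 and VWF of stromal, neuroendocrine, immune and endothelial cells were at 0 in all 6 libraries. Others of these classes had a few counts over the 6 libraries, 29 for COL1A1, 40 for ACTA2, 11 for ENO2, 3 for SYP and 1 for NCAM1. The labelled epithelial origin was therefore met by keratins, with no counts at the row of this secretory luminal marker. The strand setting of the counting is not known, so a marker row at 0 does not show that its gene was silent or that such cells were absent.

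With tamoxifen, 561 of 5816 rows (9.65%) passed a Benjamini-Hochberg adjusted p under 0.05 in DESeq2, here called changed. Of these, 327 (5.62%) were higher and 234 (4.02%) lower. Changes beyond 1 on the log2 scale, in either direction, were seen for 151 of the higher and 90 of the lower rows. The vehicle and tamoxifen values, as normalized counts (counts divided by the library's size factor), did not overlap for 543 of the 561, and they did not overlap for 24.2% of all rows tested. The median log2 fold change of all rows was -0.02. With total-count scaling it was -0.16, 612 rows were changed and 229 of them (37.4%) were higher, against 58.3% of the main calls. Directions are therefore given relative to the typical row. In bulk RNA, a change in the number of cells of a type and a change in RNA per cell cannot be told apart.

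What a row stands for was examined before any gene was read from it. The libraries came from a strand-preserving kit, the strand setting of the counting is not given in the sources used here, and many counts sat on rows whose exons lie opposite those of a more abundant gene. Of the 561 changed rows, 537 could be placed in the annotation (GENCODE on GRCh37), and 426 of these (79.3%) shared exonic bases with a gene on the other strand, against 67.9% of all placed rows tested. The overlap covered a median of 27.0% of the exonic bases of these rows. It covered at least 99% in 60 rows and under 10% in 96, and 127 rows had more than 1 opposite gene. If reads were assigned to the strand opposite their transcript, a row would not measure the gene it is named for, and this would hold for rows at 0 and rows with no opposite exon too. HMGCS1, for example, had a vehicle mean of 0.316 normalized counts and CTD-2636A23.2, opposite it, 238. Which strand the counts follow was not tested. Hereafter a row is named as in the table and the coding gene opposite it is given beside it.

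The changed rows fell into classes. Non-coding rows opposite a coding gene were changed most often, 164 of 1066 tested (15.4%), of which 111 were higher and 53 lower. Non-coding rows opposite non-coding genes gave 18 of 123 (14.6%, 9 higher, 9 lower). Rows that could not be placed, for which no opposite gene can be given, gave 24 of 181 (13.3%, 13 higher, 11 lower). Coding rows opposite another coding gene gave 188 of 1725 (10.9%, 110 higher, 78 lower). Coding rows opposite non-coding genes only gave 56 of 914 (6.13%, 35 higher, 21 lower), and rows with no opposite exon gave 111 of 1807 (6.14%, 49 higher, 62 lower). The classes also differed in level. Non-coding rows opposite a coding gene held 35.7% of the counts of the repressive libraries, and rows with no opposite exon 8.27%. Whether the classes differ at like counts was not tested. Together 352 changed rows lay opposite a coding gene, of 344 different genes. In 313 of them (88.9%) the changed row held more normalized counts than the row of the coding gene itself, and in 216 more than 10 times as many. The same comparison was not made over all rows tested, and rows with more counts are more readily called. Whether these shares are particular to changed rows is therefore not known. For the 352 rows the counts of the named gene and of its opposite gene cannot be told apart.

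Both rows of a pair could be compared where both were tested, in 1150 pairs. In 235 pairs the row with more counts was changed, and its partner's log2 fold change had the same sign in 159 (67.7%), against 57.4% of all 1150 pairs. Both rows were changed in 33 pairs, 25 of them in the same direction. Pearson's r between the log2 fold changes of the 235 pairs was 0.49, and 0.26 over all pairs, as a description across rows that share libraries and overlapping sequence. Examples of joint change were LTBR with SCNN1A, RP11-706C16.8 with LY6D, AP001610.5 with MX1 and BEST1 with FTH1. Pairs that moved apart were TMEM140 with C7orf49, SAMD11 with NOC2L, KHNYN with CBLN3, TUBB6 with AFG3L2, SDR39U1 with KHNYN, MINA with CRYBG3, EPB41L4A-AS1 with EPB41L4A, and CENPP with IPPK. In these pairs TMEM140, NOC2L, CBLN3, MINA and EPB41L4A-AS1 each lost the call without at least 1 single library. Among the examples of joint change, SCNN1A also lost its call in several such fits. MX1 had no adjusted p when any 1 tamoxifen replicate was left out.

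**Figure D1:**
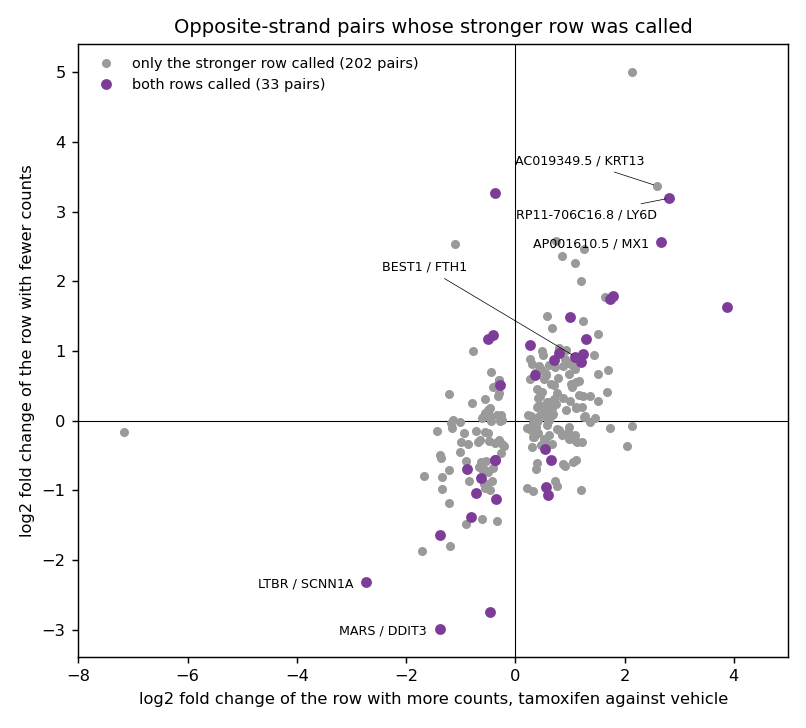
Log2 fold change (tamoxifen against vehicle) of the row with more counts (x axis) and of the row with fewer counts (y axis) for opposite-strand pairs whose stronger row was changed. Purple points are the 33 pairs with both rows changed and grey points the other 202, and 159 of the 235 pairs lie where both changes have the same sign.

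The steroid-responsive genes had the lowest median change of the lists by own rows. Of 18 list members with a tested row, 6 fell (FKBP5, TSC22D3, CEBPD, MT2A, MT1X and SCNN1A), 1 rose (NDRG1) and 11 were not called, with a median log2 fold change of -1.45 against -0.02 for all rows. The share called by own rows was 38.9%, against 9.65% of all rows tested. Only 4 members had a tested row opposite them. Of these LTBR, opposite SCNN1A, fell and MX1, opposite TMPRSS2, rose. By either reading 2 members were higher, a count of 1 without vehicle replicate 2 or 3 or tamoxifen replicate 2 or 3 and of 0 without tamoxifen replicate 1, since MX1 had no adjusted p when any 1 tamoxifen replicate was left out and NDRG1 was not called without vehicle replicate 2 or 3 or tamoxifen replicate 1.

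LTBR (ENSG00000111321, GRCh37 chromosome 12, 6484211 to 6500737, plus strand) encodes the lymphotoxin beta receptor, an activator of non-canonical NF-kB signalling. Its exons share 422 bases with SCNN1A (ENSG00000111319, 6456009 to 6486896, minus strand), the alpha subunit of the epithelial sodium channel and a long-known corticosteroid target. The LTBR row had 614, 677 and 678 normalized counts with vehicle and 95.1, 115 and 89.1 with tamoxifen. These groups were far apart (log2 fold change -2.73, SE 0.12, adjusted p 3.08e-109). The SCNN1A row itself had 9.49, 19.8 and 28.5 against 0, 0 and 11.5, so its groups overlapped, and it fell by 2.32 on the log2 scale (SE 0.81, adjusted p 0.0377). Per kilobase of exon the vehicle level was 107 at the LTBR row and 3.28 at the SCNN1A row. The SCNN1A call was lost with edgeR (adjusted p 0.056) and without vehicle replicate 2 or 3 or tamoxifen replicate 1 or 2 (0.104 to 0.206), and the LTBR call was kept in each of these fits. The counts do not say which of these genes fell.

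FKBP5 (ENSG00000096060, chromosome 6, minus strand), an immunophilin co-chaperone of steroid receptors, has no opposite exon. It had 60.8, 26.1 and 46.9 normalized counts with vehicle and 5.82, 8.12 and 8.38 with tamoxifen. Every tamoxifen value lay below every vehicle value, and the row fell by 2.59 on the log2 scale (SE 0.45, adjusted p 3.92e-07). TSC22D3 (GILZ, a glucocorticoid-induced leucine zipper) went from 31.3, 39.5 and 20.2 to 3.88, 5.80 and 3.14, a fall of 2.84 on the log2 scale (SE 0.53, adjusted p 3.02e-06). Its opposite gene NCBP2L shares 71 bases and had 0 counts in the 6 libraries. CEBPD, a transcription factor induced by glucocorticoids and cytokines, had 153, 142 and 130 against 24.3, 30.2 and 33.5. It lies on chromosome 8 with no opposite exon and fell by 2.28 (SE 0.26, adjusted p 1.21e-15). The metallothioneins MT2A and MT1X, which bind zinc and copper, were low. MT2A had 26.6, 26.1 and 11 against 6.79, 3.48 and 2.10 (log2 fold change -2.34, adjusted p 0.00237), and MT1X 4.75, 7.19 and 5.51 against 0, 0 and 1.05. Both pairs of groups were separate. MT2A was not called by limma-voom (adjusted p 0.149), and MT1X was not called by limma-voom (0.307) or without vehicle replicate 2 (0.0794), with no adjusted p without vehicle replicate 3 or any tamoxifen replicate.

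NDRG1, a stress- and androgen-responsive gene, moved the other way, from a mean of 84.0 ± 27.2 to 152 ± 23.8 (SD, n = 3), a rise of 0.86 (SE 0.24, adjusted p 0.00583). Its adjusted p was 0.0528 to 0.0748 without vehicle replicate 2 or 3 or tamoxifen replicate 1. PER1, a circadian repressor and hormone target, had 15.3 ± 4.02 against 5.87 ± 3.81 and did not pass (adjusted p 0.138). ZBTB16 was below the count minimum, with 5, 7 and 6 counts against 0, 1 and 0. KLK3 was at 0 counts and TMPRSS2 had 1 count in all, so no change could be read from these rows. Given the unknown strand setting, such rows may not measure the genes they are named for.

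The starts of annotated genes, these among them, were searched on both strands within 10000 bases on either side. The letters sought were those of the ARE, AGAACA and TGTTCT spaced by 3 bases of any kind. The looser GNACA and TGTNC with the same spacing were sought too. The windows below are a selection, shown because they lie at genes that fell, and NUPR1 is from the stress list below. Other matches, also near genes that rose such as KRT17 and TAP1, are not shown. The match to the looser letters, with the bases between, is in capitals, each run is 30 bases of the GRCh37 plus strand, and N stands for any base. The window at LTBR and SCNN1A (chr12:6485477-6485506) lies in an intron of both genes, 1274 bases inside LTBR and 1411 bases inside SCNN1A. The FKBP5 windows lie in an intron 469 bases inside the gene (chr6:35695883-35695912) and between genes before its start (chr6:35699788-35699817). The TSC22D3 window lies in an intron of the gene (chrX:107011067-107011096), and the NUPR1 window lies outside NUPR1, in an intron of ENSG00000289754 (chr16:28556875-28556904).
LTBR and SCNN1A: gggccctaGGACATTCTGTTCttttttaca
FKBP5 intron: cggggctgGAACACAATGTCCcgagcgggc
FKBP5 upstream: gagcgaaaGAACATCCTGTGCccgtcgccg
TSC22D3 intron: ttgggacaGCACAGTATGTTCtgggccatt
NUPR1 upstream: aggttgcaGAACATCATGTACactacaaat
The looser letters were common. They occurred near the starts of 22.3% of all placed rows, 22.9% of the rows that rose and 24.2% of the rows that fell. Read by the opposite gene, the shares were 22.6%, 23.8% and 19.3%. The full 15 letters occurred near 19 of 5635 placed rows (0.337%), and near 0 of the 314 that rose and 0 of the 223 that fell. A match is a description of letters and not of binding.

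**Figure D2:**
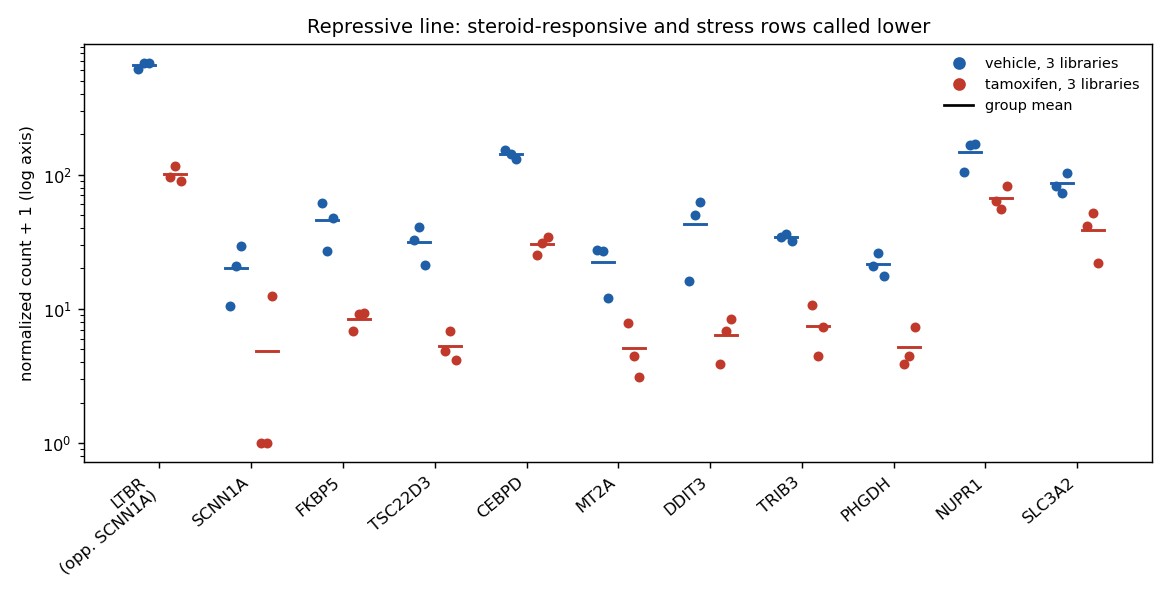
Normalized count plus 1 (log axis) in each of the 3 vehicle (blue) and 3 tamoxifen (red) libraries of the repressive line for steroid-responsive and stress rows that fell, with a bar at the group mean. Vehicle and tamoxifen points are separate for every row shown except SCNN1A, where the highest tamoxifen library (11.5) lies above the lowest vehicle library (9.49).

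Genes of the interferon response rose together, and none of the list's tested rows fell. Interferons signal through a transcription factor complex to a promoter element with repeated GAAA letters, and their targets block viral replication and raise antigen presentation. By their own rows 8 of 29 tested members rose (MX1, ISG15, OAS3, IRF1, TYMP, IFITM1, IFITM3 and HELZ2), 0 fell, and the median log2 fold change was 1.26. By the row opposite the member, 6 of 12 rose and 0 fell. Together 13 of 33 members were higher by either reading. By own rows 27.6% were called, against 9.65% of all rows tested. Reading a member by either row gives it more openings to be called, and 15.4% of all non-coding rows opposite a coding gene were changed.

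MX1, a dynamin-like GTPase that traps viral nucleocapsids, was higher by both. AP001610.5 (ENSG00000228318, chromosome 21, 42812983 to 42817635, minus strand), which shares 436 exonic bases with MX1, had 26.6, 40.4 and 19.3 normalized counts with vehicle and 176, 211 and 166 with tamoxifen. The groups were separate, and the row rose by 2.68 (SE 0.31, adjusted p 4.47e-16). The MX1 row had 13.3, 3.59 and 2.76 against 47.6, 34.8 and 33.5, a rise of 2.57 (SE 0.72, adjusted p 0.00468). In the annotation MX1 also shares 562 bases with TMPRSS2, whose own row held 1 count.

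ISG15, a ubiquitin-like modifier, went from 19.9, 22.5 and 30.3 to 70.9, 70.8 and 59.7 (log2 fold change 1.47, SE 0.33, adjusted p 0.000225). OAS3, a sensor of double-stranded RNA, went from 3.80, 9.88 and 4.59 to 29.1, 26.7 and 32.5 (2.27, SE 0.66, adjusted p 0.00724). The membrane proteins IFITM1 and IFITM3, which block viral entry and have similar sequences, had means of 18.3 ± 9.65 and 26.4 ± 1.87 with vehicle and 69.1 ± 9.17 and 68.2 ± 15.3 with tamoxifen (SD, n = 3). IRF1, a transcription factor of the pathway, rose from 54.0 ± 8.33 to 128 ± 19.4 (1.24, adjusted p 8.68e-05). TYMP, thymidine phosphorylase, rose from 10.8 ± 3.81 to 51.6 ± 2.50 (2.26). In all of these the lowest tamoxifen library lay above the highest vehicle library. HELZ2 lost its call without vehicle replicate 3 or tamoxifen replicate 1 or 3 (adjusted p 0.0548 to 0.0835), and OAS3 without vehicle replicate 1 (0.0552). With any 1 tamoxifen replicate left out MX1 and OAS3 had no adjusted p.

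Other members were read from opposite rows. NANS lies opposite TRIM14, a mitochondrial adaptor of antiviral signalling, with 422 shared bases, and had 117, 124 and 93.7 against 287, 345 and 268 (1.43, SE 0.22, adjusted p 5.31e-09). The TRIM14 row had 225 against 189 and was not called (-0.25, adjusted p 0.294). NANS itself is a sialic acid synthase and not an interferon gene. CTD-2047H16.4, opposite the ubiquitin ligase RNF213, went from 58.3 ± 6.63 to 187 ± 2.98 (1.68), AC009950.2, opposite SP110, from 17.5 ± 7.39 to 66.3 ± 12.3 (1.92), and AC007899.3, opposite the kinase EIF2AK2, from 7.06 ± 1.37 to 28.1 ± 7.14 (1.99). Outside the list, and chosen after their values were seen, TLDC2 opposite SAMHD1 (1.45), ANGPTL6 opposite SHFL (1.53) and C7orf49 opposite TMEM140 (3.26) rose too.

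The promoters of these genes are shown because they carry the letters that the interferon pathway reads. RefSeq promoters on GRCh38.p14, from 250 bases before to 50 bases after the start, were searched on both strands for TTTC repeated after 2 bases of any kind, which reads as GAAA repeated on the other strand. The match is in capitals, each run is 30 bases on the strand of the gene, and the position is that of the first capital from the start.
ISG15 at -107: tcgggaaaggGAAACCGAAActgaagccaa
OAS3 at -12: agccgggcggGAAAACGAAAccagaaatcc
IFITM1 at -6: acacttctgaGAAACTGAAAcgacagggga
IFITM3 at -35: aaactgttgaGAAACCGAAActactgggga
EIF2AK2 at -6: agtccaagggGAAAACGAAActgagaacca
TRIM14 at -26: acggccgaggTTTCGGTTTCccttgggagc
TAP1 at -134: aggcggccgcTTTCGATTTCgctttcccct
Of 27305 promoters 1195 (4.38%) held the letters. They were in 33 of the 51 promoters available for interferon list members (64.7%), and in 7 of the 12 available for members that rose by either reading (58.3%).

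**Figure D3:**
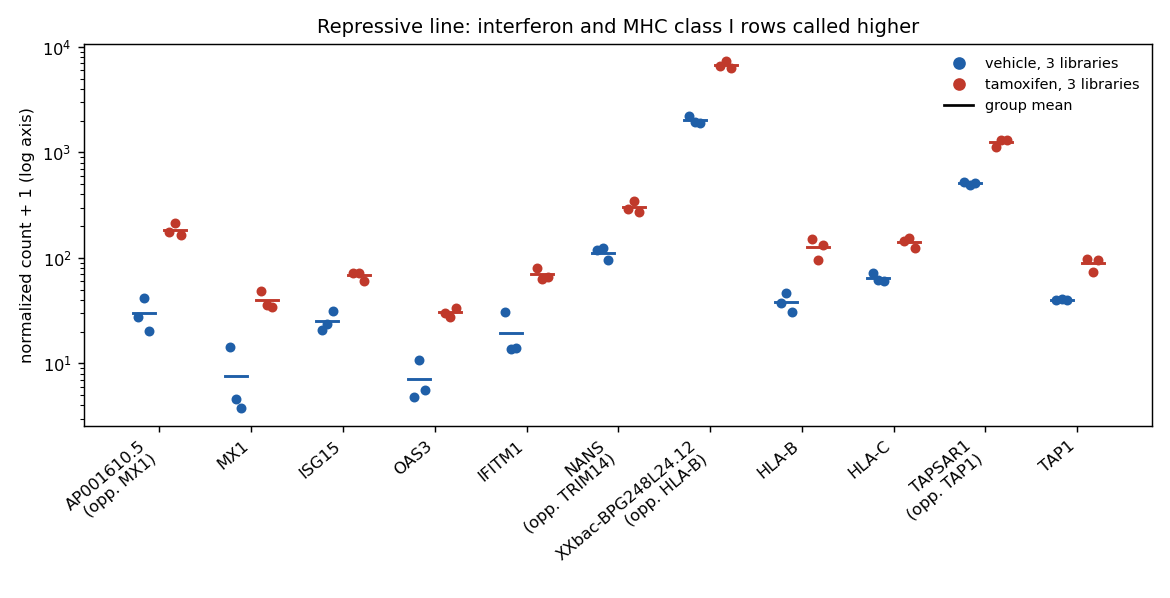
Normalized count plus 1 (log axis) in each of the 3 vehicle (blue) and 3 tamoxifen (red) libraries for interferon and MHC class I rows that rose, with a bar at the group mean and the opposite coding gene in brackets. The groups are separate in every row shown, and the row opposite HLA-B went from a mean of 2014 to 6702.

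MHC class I antigen presentation rose as well. Class I molecules carry peptides, pumped into the endoplasmic reticulum by TAP1 and TAP2, to the cell surface. By own rows 4 of 14 list members rose (HLA-B, HLA-C, TAP1 and CALR) and 0 fell, with a median of 0.42. By opposite rows 5 of 7 rose. The share called by own rows was 28.6%, against 9.65% of all rows tested. For opposite rows the shares to set beside it are 15.4% of non-coding and 10.9% of coding rows opposite a coding gene. The row XXbac-BPG248L24.12 (ENSG00000271581, chromosome 6, 31324424 to 31325414, plus strand), an annotated pseudogene that shares 671 bases with HLA-B, had 2207, 1926 and 1907 normalized counts with vehicle and 6515, 7286 and 6306 with tamoxifen. The row rose by 1.73 (SE 0.07, adjusted p 5.56e-117). The HLA-B row had 36.1, 45.8 and 29.4 against 149, 94.0 and 131, a rise of 1.75 (SE 0.31, adjusted p 5.89e-07), so both strands of the locus moved by a like amount at levels far apart. HCG4P11, opposite HLA-F, went from 283 ± 27.4 to 912 ± 71.1 (1.69), and the HLA-F row was not called (0.73, adjusted p 0.0677).

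HLA-C has no opposite exon and had 70.3, 61.1 and 58.8 against 143, 152 and 123 (1.13, SE 0.22, adjusted p 1.12e-05). The class I genes and their pseudogenes are close copies of each other, and reads may have been shared among them. TAPSAR1, opposite TAP1, had 518, 492 and 513 against 1126, 1300 and 1304 (1.29, SE 0.10, adjusted p 1.14e-34), and TAP1 38.9, 39.5 and 38.6 against 97.1, 72.0 and 94.3 (1.17, SE 0.29, adjusted p 0.000835). CALR, a chaperone of class I folding, rose with its opposite row CTC-425F1.4, by 0.84 and 1.21.

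Squamous differentiation genes formed the next group. These genes build the cornified and stratified layers of skin and mucosa and appear in prostate epithelium on squamous metaplasia. By own rows 6 of 24 members rose, 2 fell (KRT6A and PKP1) and the median was 0.53. By opposite rows 5 of 8 rose and 0 fell. Together 10 of 27 were higher and 2 lower. The SERPINB11 row is counted both for SERPINB11 and for SERPINB3, opposite it. The share called by own rows was 33.3%, against 9.65% of all rows tested. Of all rows opposite a coding gene, 15.4% of non-coding and 10.9% of coding rows were changed. AC019349.5 (ENSG00000229732, chromosome 17, 39657235 to 39658661, plus strand), opposite the mucosal keratin KRT13 with 476 shared bases, had 173, 188 and 227 normalized counts against 1273, 1043 and 1233. It rose by 2.60 (SE 0.15, adjusted p 1.10e-60). The KRT13 row had 7, 1 and 1 counts against 30, 26 and 26, with no adjusted p after independent filtering. RP11-706C16.8, opposite LY6D, a surface marker of stratified epithelium, had 25.6, 46.7 and 29.4 against 250, 216 and 253 (2.82, SE 0.24, adjusted p 2.22e-30), and LY6D 8.54, 4.49 and 8.27 against 83.5, 55.7 and 54.5 (3.19, SE 0.46, adjusted p 3.12e-10). Neither pair of groups overlapped.

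SERPINB11, a serine protease inhibitor, shares 620 bases with SERPINB3, the squamous cell carcinoma antigen, which had 0 counts in these libraries. The row had 89.2, 62.9 and 45.9 against 441, 692 and 477, and both genes are members of the list (3.02, SE 0.23, adjusted p 4.38e-38). FGFBP1, a carrier of fibroblast growth factors with no opposite exon, had 13.3, 17.1 and 13.8 against 108, 62.7 and 105 (2.64, SE 0.39, adjusted p 1.00e-09). CDSN, corneodesmosin, rose from 74.3 ± 12 to 180 ± 16.6 (1.28, adjusted p 1.90e-07) and TGM1, the transglutaminase that cross-links the cornified envelope, from 7.30 ± 5.38 to 30.1 ± 6.58 (2.04, adjusted p 0.0374). CTC-518B2.12 opposite the kallikrein KLK10 (2.57) and RP11-770G2.5 opposite the transcription factor OVOL1 (1.17) rose too. KRT6A, a keratin of wounded and activated epidermis with near-identical copies KRT6B and KRT6C, fell from 68.5 ± 8.66 to 30.8 ± 5.47 (-1.16, SE 0.26, adjusted p 0.000175). PKP1, a desmosomal plaque protein, fell by 0.55 (adjusted p 0.0457), with groups that overlapped. That call was lost with edgeR (0.0587) and limma-voom (0.148), and without vehicle replicate 2 or 3 or tamoxifen replicate 2 or 3 (0.0923 to 0.299), which leaves KRT6A as the fall of the list. The TGM1 call was lost with edgeR (0.0587) and without vehicle replicate 1 or 3 (0.149 and 0.169), with no adjusted p when any 1 tamoxifen replicate was left out.

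Basal epithelial genes mark the cells resting on the basement membrane. By own rows 9 of 28 tested members rose, 0 fell, 19 were not called and the median was 0.42. The share called was 32.1%, against 9.65% of all rows tested. KRT17 rose from 657 ± 90.3 to 1004 ± 138 (0.61, SE 0.12, adjusted p 1.99e-05) and KRT5 from 764 ± 126 to 1026 ± 64.9 (0.43, adjusted p 0.00305, and 0.108 with total-count scaling and 0.073 without vehicle replicate 3). Of the hemidesmosome genes, which anchor the cell, ITGB4 rose from 106 ± 15.5 to 204 ± 62.2 (0.95) and COL17A1 by 0.62. SFN, the epithelial 14-3-3 sigma, rose by 0.86. KRT14 (0.28, adjusted p 0.165) and TP63 (-0.58, adjusted p 0.655) were not called. By either reading 1 member fell, EGFR through EGFR-AS1 (-0.67, adjusted p 0.0207), a call lost with limma-voom (0.0588) and without vehicle replicate 1 or 2 or tamoxifen replicate 2 or 3 (0.0563 to 0.178). By either reading 10 rose, a count of 6 with total-count scaling and of 6 without replicate 3 of the vehicle group. The summed level of the list by own rows was 3569 to 4911 CPM with vehicle and 4689 to 6585 with tamoxifen, overlapping ranges.

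Of 12 tested luminal list members, 2 rose, 1 fell and the median was -0.31. The share called was 25%, against 9.65% of all rows tested. PSCA, a surface antigen of prostate epithelium, had 25.6, 31.4 and 26.6 normalized counts with vehicle and 0 in all tamoxifen libraries. Against a floor of 3 counts per library it was at least 8.78-fold lower (adjusted p 3.50e-07). Its partner JRK shares 367 bases and was not called (-0.16, adjusted p 0.949). MUC1, a luminal mucin, rose from 7.09 ± 1.26 to 27.1 ± 2.62 (1.94, adjusted p 0.0336, and 0.0917 with edgeR) and ELF3, an epithelial transcription factor that is also on the squamous list, from 33.1 ± 11.1 to 64.6 ± 8.82 (0.96, adjusted p 0.0207, and 0.0595 with total-count scaling). Without vehicle replicate 1 or 2 both calls were lost (adjusted p 0.0694 to 0.128). Without tamoxifen replicate 1 ELF3 was not called (0.114) and MUC1 had no adjusted p. KRT8 (-0.03) and KRT18 (0.25) did not pass, and RP3-416H24.1, opposite the luminal keratin KRT7, fell by 0.25 (adjusted p 0.00314). By either reading 3 luminal members rose, 1 of them TMPRSS2 through the MX1 row, a count of 1 with total-count scaling and of 0 without replicate 1 of the tamoxifen group. Summed over the list by own rows, the level was 1566 to 1713 CPM with vehicle and 1406 to 1506 with tamoxifen. These ranges did not overlap, but CPM are scaled by library total, under which the median log2 fold change of all rows was -0.16. Whether the luminal sum fell relative to the typical row was not tested.

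Among the lists of other cell types, 0 of 12 neuroendocrine members and 1 of 15 immune and endothelial members had a tested row, and that row was not called. The summed levels were 2.55 to 5.44 and 15 to 36.9 CPM with vehicle, and 5.14 to 7.89 and 15.8 to 38.5 with tamoxifen. Of the stromal list, VIM (vimentin, an intermediate filament that cultured epithelial cells also express) fell from 153 to 103 (-0.56, adjusted p 0.0353, and 0.0561 to 0.283 without vehicle replicate 1 or 2 or tamoxifen replicate 1 or 2) and its opposite row VIM-AS1 from 9084 ± 381 to 7010 ± 213 (-0.37, SE 0.05, adjusted p 1.47e-10). Stromal sums were 357 to 371 and 255 to 322 CPM, also scaled by library total. Whether such cells had a part in any result was not tested, with COL3A1, DES, PTPRC, CD3E and VWF at 0 and COL1A1 and ACTA2 at 0 to 13 counts a library.

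The cholesterol synthesis list showed calls only on rows opposite its members. The pathway makes sterols from acetyl-CoA through mevalonate and is switched on by SREBP2 when cell sterol falls. By own rows 0 of 14 tested members were called, with a median of 0.51. By opposite rows 4 of 6 rose. Among all rows tested opposite a coding gene, 15.4% of non-coding and 10.9% of coding rows were changed. CTD-2636A23.2 (ENSG00000261604, chromosome 5, 43287703 to 43290941, plus strand), which shares 2497 bases with the HMG-CoA synthase gene HMGCS1, had 282, 210 and 222 normalized counts against 1271, 1465 and 1442 (2.55, SE 0.13, adjusted p 1.58e-77). The HMGCS1 row had means of 0.316 and 0.647. IDI2-AS1, opposite the isomerase IDI1, had 70.3, 64.7 and 70.7 against 198, 208 and 209 (1.58, SE 0.19, adjusted p 3.34e-15). RUSC1-AS1, opposite farnesyl diphosphate synthase FDPS, rose from 814 ± 150 to 1678 ± 21.9 (1.04, adjusted p 4.48e-21), and TCP1, opposite the thiolase ACAT2, from 451 ± 82.4 to 853 ± 65.2 (0.92, adjusted p 0.000353). TCP1 is itself a chaperonin subunit. All 4 rows were also called higher in the activating line. The rises there were 1.51 (CTD-2636A23.2, DESeq2 adjusted p 1.15e-24), 0.93 (RUSC1-AS1, 8.96e-16), 0.89 (IDI2-AS1, 5.35e-05) and 1.03 (TCP1, 7.53e-05). In the neutral line CTD-2636A23.2 (0.69, 6.22e-05) and RUSC1-AS1 (0.68, 8.40e-08) rose too. IDI2-AS1 (0.42, 0.201) and TCP1 (0.51, 0.193) were not called there. The 4 rows are thus counted here for genes whose own rows did not pass.

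Of the stress response list, which holds targets of ATF4 and of oxidative stress, 6 of 22 members fell by own rows, 1 rose and the median was -0.64. The share called was 31.8%, against 9.65% of all rows tested. ATF4 raises amino acid synthesis and transport and, with prolonged stress, the factor DDIT3. DDIT3 (CHOP) had 15.2, 49.4 and 61.6 normalized counts with vehicle and 2.91, 5.80 and 7.34 with tamoxifen (-2.99, SE 0.56, adjusted p 3.09e-06). Its groups were separate but the vehicle libraries were uneven. It shares 355 bases with MARS, a methionyl-tRNA synthetase, whose row fell from 72.3 ± 16.1 to 27.8 ± 6.81 (-1.38, adjusted p 4.54e-05). TRIB3, a pseudokinase induced by DDIT3, had 33.2, 35.0 and 31.2 against 9.71, 3.48 and 6.29 (-2.33, SE 0.51, adjusted p 0.000116). NUPR1, a small stress-induced chromatin protein, had 103, 166 and 168 against 62.1, 54.6 and 80.7 (-1.15, SE 0.23, adjusted p 1.39e-05). PHGDH, the entry enzyme of serine synthesis, fell from 20.5 ± 4.34 to 4.23 ± 1.81 (-2.28) and DDIT4, an inhibitor of mTORC1, by 0.99. SLC7A11-AS1, opposite the cystine transporter SLC7A11, fell by 1.36 (adjusted p 0.0289, and 0.084 to 0.173 without vehicle replicate 1 or 2 or tamoxifen replicate 2 or 3). SLC3A2, the heavy chain of that transporter and a gene with no opposite exon outside the list, had 81.6, 71.9 and 102 against 40.8, 51.1 and 21.0 (-1.19, SE 0.27, adjusted p 0.000254).

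The ferritin genes, which store iron, did not move together. BEST1, the row with the most counts, lies opposite the ferritin heavy chain gene FTH1 with 1267 shared bases and had 38764, 48291 and 50933 normalized counts against 93992, 100449 and 100776 (1.10, SE 0.08, adjusted p 3.54e-42). FTH1 had 176, 253 and 250 against 469, 454 and 360 (0.92, SE 0.15, adjusted p 1.20e-07). FTL, the light chain, with no opposite exon, fell from 26.3 ± 6.21 to 9.21 ± 4.47 (-1.52, adjusted p 0.0130, and 0.0887 and 0.123 without vehicle replicate 2 or tamoxifen replicate 3). ACO1, which as an iron regulatory protein binds ferritin transcripts, rose from 48.5 ± 17.2 to 116 ± 17.6 (1.26, SE 0.28, adjusted p 0.000132).

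Of 77 ribosomal protein genes, 16 fell by own rows, 0 rose and 61 were not called, with a median of -0.44, and by opposite rows 5 of 17 fell. The share called by own rows was 20.8%, against 9.65% of all rows tested. Of all rows opposite a coding gene, 15.4% of non-coding and 10.9% of coding rows were changed. RPL3 had 173, 191 and 170 normalized counts against 117, 76.6 and 65.0 (-1.04, SE 0.19, adjusted p 2.80e-06), and RPL13A 398, 404 and 393 against 266, 247 and 232 (-0.68, SE 0.12, adjusted p 9.11e-07). Among opposite rows ATG10, opposite RPS23, went from 7545 ± 266 to 5809 ± 480 (-0.38) and SH3D19, opposite RPS3A, from 6015 ± 575 to 4316 ± 385 (-0.48). The fall of 21 members by either reading became 36 with total-count scaling. Ribosomal protein genes have many processed pseudogenes, and reads may be split among them.

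Of 30 tested MYC targets, 3 fell by own rows (NOLC1, PPAN and RANBP1), 0 rose and the median was -0.52. This share of 10% called is near the 9.65% of all rows. PPAN was not called with edgeR (adjusted p 0.0563) or without vehicle replicate 1 or 2 (0.203 and 0.0603), nor RANBP1 without vehicle replicate 3 or tamoxifen replicate 1 (0.0702 and 0.0905). By opposite rows 3 of 11 fell, at the rows opposite WDR74, PA2G4 and CDK4. Among all rows tested opposite a coding gene, 15.4% of non-coding and 10.9% of coding rows were changed. NOLC1, a nucleolar phosphoprotein, fell from 25.8 ± 0.220 to 7.99 ± 1.93 (-1.68, adjusted p 0.0108, and 0.0568 without replicate 2 of the tamoxifen group). MYC had 18.6 ± 10.7 against 12.5 ± 6.08 and was not called (adjusted p 0.657).

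The cell cycle lists held no called own row, with 0 of 21 S phase and 0 of 17 G2/M members and medians of -0.01 and -0.08. MKI67, a proliferation marker, had 40.5 ± 18.6 against 38.1 ± 9.91 (-0.08, adjusted p 0.941), and CDKN1A 11.7 against 13.1. By opposite rows ENOSF1 rose by 0.31 opposite TYMS and ITFG2 fell by 0.27 opposite FOXM1, and edgeR called neither (adjusted p 0.0539 and 0.0922). GSE1 fell by 1.34, where the S phase gene GINS2 shares 7 bases. No KRAB machinery gene (such as TRIM28 and its partners) was called among 10 tested, with a median of -0.14. The same held for 15 genes of the mitochondrial genome, whose summed level was 3139 CPM in replicate 1 with tamoxifen and 5314 to 7331 in the other 5 libraries. Of 10 inflammatory genes only LTBR was called by its own row, a share of 10% near the 9.65% of all rows tested. By opposite rows LTBR's partner SCNN1A fell and RP11-465L10.10, opposite the gelatinase MMP9, rose from 4.92 ± 2.68 to 33.0 ± 14.4 (2.75). Of 7 ion transport genes 1 rose by its own row and 1, SCNN1A, fell (28.6% called, against 9.65% of all rows). NME7, opposite ATP1B1, rose by 1.16 (adjusted p 0.0523 without replicate 3 of the tamoxifen group), and TBPL1, opposite the glucose transporter SLC2A12 with 2852 shared bases, by 2.04. The TBPL1 row also rose in the neutral line (1.25, DESeq2 adjusted p 0.000393) and the activating line (1.09, 0.00131). Its differences from those lines were not called (adjusted p 0.191 and 0.0958).

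**Figure D4:**
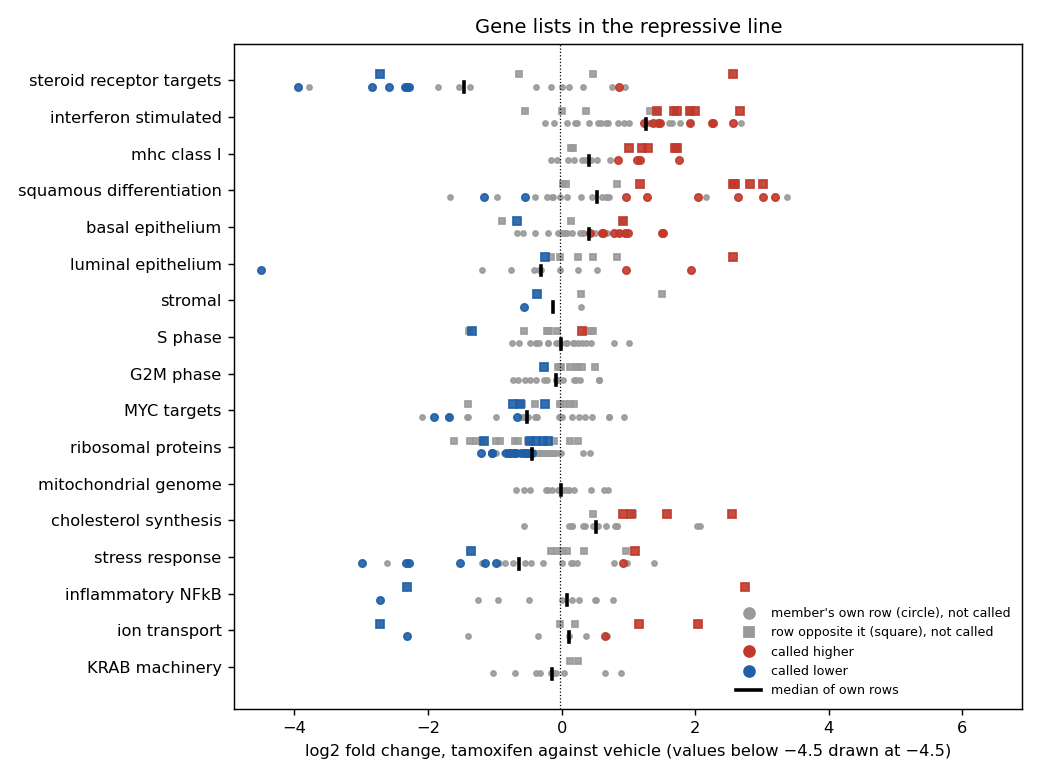
Log2 fold change (tamoxifen against vehicle) of list members in the repressive line, by the member's own row (circles) and by the row opposite it (squares), with called rows in red (higher) or blue (lower). The black bar is the median of the own rows and the dotted line the median of all rows (-0.02). Interferon own rows have a median of 1.26 and steroid receptor targets one of -1.45.

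Rows with large changes outside the lists were named by size alone. C7orf49 (chromosome 7, minus strand, now CYREN) had 8.54, 12.6 and 12.9 normalized counts against 106, 94.0 and 127 (3.26, SE 0.40, adjusted p 4.86e-14). It shares 526 bases with TMEM140, whose row fell from 461 ± 42.9 to 356 ± 39.0 (-0.37, adjusted p 0.0168, and 0.136 and 0.163 without vehicle replicate 3 or tamoxifen replicate 1). ARFRP1, opposite ZGPAT with 95 bases, had 61.7, 6.29 and 10.1 against 131, 146 and 63.9 and an SE of 0.71, and its adjusted p of 0.0271 became 0.103 to 0.134 without replicate 3 of the vehicle group or replicate 1 or 2 of the tamoxifen group.

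Among the falls, RP5-1050D4.3 (ENSG00000262429), opposite the transcription activator CAMTA2, had 280, 313 and 356 against 80.6, 91.7 and 125 (-1.68, SE 0.18, adjusted p 1.43e-18). RP11-498C9.13, opposite PYCR1, an enzyme of proline synthesis, had 353, 350 and 382 against 140, 145 and 141 (-1.35, SE 0.15, adjusted p 2.62e-17). The row CTC-564N23.2 lies opposite ZBED3, an axin-binding protein of Wnt signalling, and had 103, 80.8 and 76.3 against 30.1, 27.9 and 21.0 (-1.72). CTD-2510F5.4 opposite PRR11 fell by 1.38 and L3MBTL2, a chromatin protein opposite L3MBTL2-AS1, by 1.43. RP11-154D6.1, which could not be placed, fell from 86.1 ± 12.5 to 28.9 ± 3.23 (-1.58). In each of these rows the groups were separate.

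Rows with no opposite exon have no partner to name, though the limit on strand holds for them. Beside those above, H19, an imprinted non-coding RNA, had 101, 110 and 107 against 382, 376 and 322 (1.77, SE 0.24, adjusted p 8.68e-12), and LINC00319 rose by 1.72 (adjusted p 2.15e-05). HMGN1, a nucleosome-binding protein, fell from 73.5 ± 22.8 to 35.1 ± 6.02 (-1.06), and leaving out vehicle replicate 1 gave an adjusted p of 0.0873. RPL23 fell by 1.04, and leaving out tamoxifen replicate 2 gave 0.0786. When the fit was restricted to such rows, 88 were called, 47 higher and 41 lower.

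The neutral line, which has the same DNA-binding domain without KRAB, was set beside the repressive line to see which tamoxifen effects differ. Each construct was carried by its own stable population, so an effect of KRAB and an effect of the line cannot be told apart. The neutral line's own tamoxifen comparison called 45 rows (0.774%), and 28 of the 561 were among them. The difference between the tamoxifen effects of the repressive and the neutral line, tested as an interaction, was called in 224 rows (3.85%), 136 with a higher (2.34%) and 88 with a lower (1.51%) effect in the repressive line. Of these, 202 were among the 561, each with a difference of the same sign as the repressive change. This agreement of sign follows in part from the shared repressive libraries.

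Rows of several gene groups differed. For the row opposite KRT13 the effect was 2.60 in the repressive and -0.39 in the neutral line (AC019349.5, difference 2.98, SE 0.25, adjusted p 8.58e-30), and for that opposite HLA-B it was 1.73 and 0.18 (XXbac-BPG248L24.12, difference 1.56, SE 0.11, adjusted p 2.35e-44). H19 (1.77 and -0.03), HLA-C (1.13 and 0.06), TSC22D3 (-2.84 and 0.35), DDIT3 (-2.99 and 0.36) and NUPR1 (-1.15 and 0.32) also differed. LTBR was called lower in both lines, with -2.73 and -0.77 (difference -1.95, adjusted p 1.41e-32), as was CEBPD, with -2.28 and -0.89 (difference -1.39, adjusted p 0.0031). For FKBP5 the difference of -1.72 had an adjusted p of 0.0519. KRT5 (0.43 and 0.37, difference 0.05, SE 0.16, adjusted p 0.922) and ITGB4 (0.95 and 0.92, difference 0.02, SE 0.32, adjusted p 0.981) rose in both lines, and no difference was detectable. The row opposite FDPS, RUSC1-AS1, rose in both (1.04 and 0.68, difference 0.37, adjusted p 0.121), and CTD-2636A23.2, opposite HMGCS1, differed (2.55 and 0.69, difference 1.86, adjusted p 1.31e-19). With vehicle alone, the repressive line was already higher than the neutral line at H19 (2.07, DESeq2 adjusted p 1.61e-10) and AC019349.5 (1.23, 1.46e-09). The same held at XXbac-BPG248L24.12 (0.41, 7.83e-06), LTBR (0.36, 0.00425), TAPSAR1 (0.62, 1.49e-06), AP001610.5 (1.40, 0.0127) and RUSC1-AS1 (0.37, 0.0190). With vehicle, RP11-706C16.8, opposite LY6D (-0.99, 0.00365), and IDI2-AS1 (-0.69, 0.0139) were lower in the repressive than in the neutral line. No such vehicle difference was called at HLA-C, TSC22D3, DDIT3, NUPR1, CEBPD or CTD-2636A23.2.

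In the activating line, 163 rows (2.8%) were called and 84 of the 561 were among them. The repressive and activating effects differed in 247 rows (4.25%), 152 with a higher (2.61%) and 95 with a lower (1.63%) effect in the repressive line. LTBR rose by 0.53 in the activating line (adjusted p 9.95e-07) and fell by 2.73 in the repressive line. The BEST1 row opposite FTH1 had -0.40 and 1.10, and the row opposite LY6D -1.31 and 2.82. MARS (-1.16), NUPR1 (-0.80) and the rows opposite PYCR1 (-0.84), CAMTA2 (-0.90) and HMGCS1 (1.51) were called in the activating line in the same direction as in the repressive line.

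**Figure D5:**
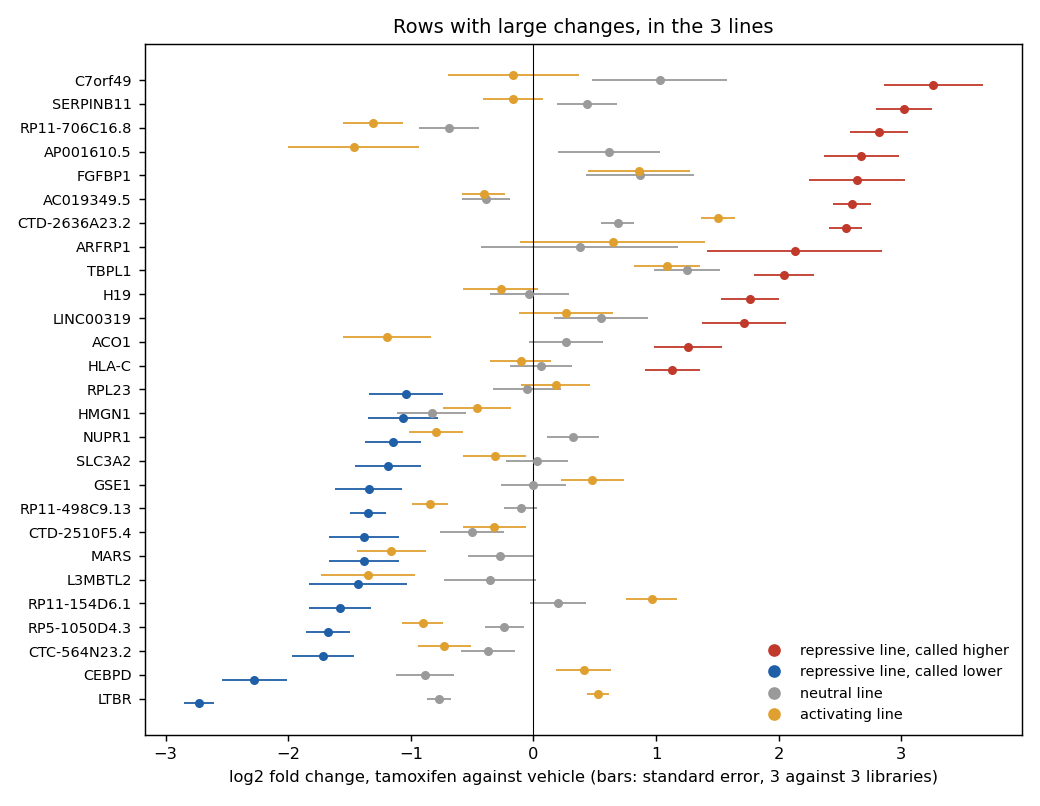
Log2 fold change with tamoxifen in the repressive (red or blue), neutral (grey) and activating (orange) line, with standard errors from 3 against 3 libraries, for rows with large changes in the repressive line. LTBR lies at -2.73, -0.77 and 0.53 and the row AC019349.5, opposite KRT13, at 2.60, -0.39 and -0.41.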

How the data were processed

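RNA-seq libraries were made by the authors from RWPE1 MACC lines with a stranded mRNA kit and processed with nf-core/rnaseq (genome option GRCh37). Per the labels, Salmon 1.9.0 and DESeq2 1.28.0 were used, and the strand setting of the counting is not given in the sources used here. The deposited table holds expected counts per gene, that is, salmon estimates not scaled for depth or length, and 1.10% of its values were not whole. They were rounded, and the rows reaching 10 counts in 3 or more of the 18 libraries (97.6% of counts) were tested. DESeq2 1.42.0 (R 4.3.3, median-of-ratios size factors, Wald tests, independent filtering) was fitted to all 18 libraries with 6 group means, after the scripts had been tested on simulated data. Fold changes are unshrunken log2 values. Chi-square per degree of freedom between replicates was 2.84 to 3.79, so each library was counted as 1 sample.

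Exons came from GENCODE release 44 mapped to GRCh37, with 96.1% of identifiers matched. The opposite coding gene is the one with the most shared exonic bases. A list is read by the member's own row and by the tested row with the largest overlap opposite it. The members and the 19 lists were chosen with earlier results of these data known, so no list was tested. Named were up to 10 rows per direction with the largest change (adjusted p under 0.05, mean of at least 50, groups separate), up to 5 per direction without opposite exons, up to 4 called members per list and fixed genes, and other rows named were chosen after their values were seen. Some rows that met this rule are not reported here. Alternatives were edgeR 4.0.16, limma-voom 3.58.1, total-count scaling, other filters, the 6 libraries alone, the replicate number as a block and each library left out.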

Additional observations from a re-analysis of the deposited data

Results flagged for a closer look

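The tamoxifen effect differed between the repressive and the neutral line in 224 rows by the interaction test in DESeq2. Among the rows with the largest changes, the log2 effect was lower in the repressive line, by difference, at LTBR (-1.954), RP11-154D6.1 (-1.779), NUPR1 (-1.469), RP5-1050D4.3 (-1.439), CEBPD (-1.388), CTC-564N23.2 (-1.343), GSE1 (-1.341), RP11-498C9.13 (-1.244) and SLC3A2 (-1.212). It was higher at HLA-C (1.071), FGFBP1 (1.771), H19 (1.80), CTD-2636A23.2 (1.863), AP001610.5 (2.06), C7orf49 (2.233), SERPINB11 (2.586), AC019349.5 (2.981) and RP11-706C16.8 (3.504).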

How the results depend on the processing

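The 561 changed rows became 241 with an absolute log2 fold change above 1 and 88 of 1807 when only rows without an opposite exon were fitted. They were 523 with edgeR, 485 with limma-voom and 459 with the 6 libraries alone, and 443 to 502 when a library was left out. Correlations of the deviations of same-numbered replicates lay between -0.026 and -0.0005. Rows with few counts entered this check in full, so it cannot exclude a pairing of the samples. With the replicate number as a block 441 rows were called. The 224 differences from the neutral line became 154 with edgeR, 166 with the block, and 169 to 210 without single libraries, of which the fits without neutral libraries were added after seeing the data. With total-count scaling 253 differed, 91 of them (36.0%) higher in place of 60.7%. Of 65 named rows, 54 kept their call under every alternative other than the fold threshold, where an adjusted p was given, and 0 changed sign. The others included ENOSF1, ITFG2, ELF3, ARFRP1, RANBP1, HMGN1, RPL23, RP3-416H24.1, NOLC1 and NME7. Of all 561 changed rows, 260 lost the call under some setting, as examined after seeing the data. The share of pairs with the same sign was 68.0% with at least 100 shared bases, and, in a setting chosen after seeing the data, 60.5% (75 of 124) where the weaker row had at least 20 normalized counts, against 54.9% of all such pairs. At this depth a row under 10 counts in most libraries could not be tested.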

Other observations

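Several rows outside the lists were picked after their values were seen. IGF2, the growth factor gene beside H19 on chromosome 11, had 45.6, 59.3 and 36.7 normalized counts with vehicle and 154, 157 and 182 with tamoxifen, and rose by 1.80 on the log2 scale (SE 0.33, adjusted p 2.88e-06 in DESeq2). It shares 333 exonic bases with IGF2-AS, and its effect in the neutral line was -0.03 (difference 1.83, adjusted p 0.0284). CDKN1C, a cyclin-dependent kinase inhibitor imprinted in the same chromosome region, had 5.70, 5.39 and 4.59 against 15.5, 11.6 and 19.9 (1.59, adjusted p 0.0399, and 0.16 with limma-voom and 0.0772 to 0.153 without single libraries other than tamoxifen replicate 2).

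Enzymes and carriers of amino acids were also among the falls. STC2, a secreted stress-induced hormone, had 27.5, 23.4 and 49.6 against 7.76, 0 and 7.34 (-2.69, SE 0.52, adjusted p 7.78e-06). SLC1A5, a glutamine carrier, fell from 104 ± 6.27 to 55.4 ± 9.95 (-0.91, adjusted p 0.00144). SLC4A5, which shares 1324 bases with the mitochondrial folate enzyme MTHFD2, fell from 274 ± 67.6 to 138 ± 22.5 (-0.99, adjusted p 2.27e-06). The tRNA synthetase genes AARS (-1.99) and EPRS (-2.16) and the mitochondrial serine enzyme SHMT2 (-1.65) fell from vehicle means of 20.7, 12.3 and 16.6, and limma-voom called none of these 3 (adjusted p 0.0924, 0.143 and 0.138).

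CTD-2026K11.1, opposite the proteoglycan gene CSPG4, had the largest rise of all changed rows, from 7.60, 0 and 8.27 to 83.5, 70.8 and 77.5 (3.88, SE 0.52, adjusted p 7.58e-12), and CSPG4 rose by 1.63 (adjusted p 0.00352, and 0.0515 without vehicle replicate 3). C10orf55, opposite the urokinase gene PLAU with 915 shared bases, rose from 109 ± 29.4 to 310 ± 38.6 (1.50, adjusted p 2.73e-11). HOOK2, opposite the transcription factor JUNB, rose from 175 ± 14.2 to 378 ± 12.4 (1.11, adjusted p 1.84e-13).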
